A study of Mus musculus with 9 samples.

Results

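The genes described here are the immunoglobulin genes of 5TGM1-Cas9 cells, which come from a mouse line of multiple myeloma and carry Cas9. Members were taken by name from the deposited gene tables. They are the heavy chain genes (*Igh*), the kappa light chain genes (*Igk*) and the lambda light chain genes (*Igl*) that encode V, D, J or constant segments, together with *Jchain*. *Ighmbp2*, whose name begins alike, was left out. The members were 388 of the 53077 genes listed, of which 183 were heavy chain V genes, 160 kappa V genes and 3 lambda V genes. The others were 14 heavy chain D genes, 14 J genes, 8 heavy chain constant genes, *Igkc*, 4 lambda constant genes and *Jchain*.

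RNA had been sequenced from 3 populations with 3 replicates each, which the study calls biological. All were 5TGM1 cells selected for a lentiviral Cas9, and all were then transduced with gRNA. The control cells received a control gRNA, the *Slc2a1* gRNA cells a gRNA against the glucose transporter gene *Slc2a1*, and the *Slc2a1/3/5/6/8* gRNA cells gRNAs for that gene and for its relatives *Slc2a3*, *Slc2a5*, *Slc2a6* and *Slc2a8*, called the 5 gRNAs below. The labels call the latter 2 populations deleted cells. Per the study, the last population was made by sorting and expanding a line edited at the other genes before the *Slc2a1* gRNA was added. In its differences from the other populations, the added gRNAs and this history cannot be told apart. The gRNA-transduced cultures are mixed populations in which some cells keep the transporter, so every value here is an average over edited and unedited cells. In such bulk RNA, fewer cells that make a transcript and less of that transcript per cell cannot be told apart.

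A plasma cell, and the myeloma that derives from it, makes one antibody from 1 joined heavy chain gene and 1 joined light chain gene. Each joined gene carries a single V segment, which forms most of the antigen-binding domain, spliced to a constant region that sets the class of the antibody. The 5TGM1 line is known to secrete an IgG2b kappa antibody. The J chain, encoded by *Jchain*, is not part of the antibody's binding site and links IgM or IgA molecules into polymers.

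Estimated counts per sample summed to between 21838805 and 30537105. The plasma cell markers summed to 581 to 900 TPM in the 9 samples, while the B cell, T cell, myeloid, erythroid and stromal marker lists each summed to at most 4.62 TPM. Of the 9 plasma cell markers listed, 6 had a control mean of at least 1 TPM, led by *Xbp1* at 469 TPM. *Tnfrsf17* and *Ly6k* had control means of 0.912 and 0.731 TPM, and *Cd38* never exceeded 2 counts. TPM, a transcript abundance, scales counts by gene length and to a fixed total per library. *Slc2a1* itself stood at 59.5, 26.9 and 32.9 TPM in the control replicates and 37.1, 28.3 and 31.4 TPM with the *Slc2a1* gRNA, and was not called there (log2 fold change -0.21, edgeR adjusted p = 0.544). With the 5 gRNAs it stood at 24.1, 31.5 and 19.1 TPM (log2 fold change -0.66, adjusted p = 0.029). Of the other targets in that population, *Slc2a6* and *Slc2a8* were lower (-0.67 and -1.22, adjusted p = 0.0366 and 0.000309), *Slc2a3* was not called (0.27, adjusted p = 0.259) and *Slc2a5*, at 0.226 ± 0.152 TPM (SD, n = 3) in control cells, was higher (2.65, adjusted p = 0.00478), in the opposite direction to the other targets called. The transcript level of a gene cut by Cas9 does not show how many copies were edited.

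Both dominant V genes are shown by their reference sequences. These are not taken from the reads of these cells, whose own V sequences were not examined. Both genes are given with their closest or most abundant relatives because Salmon, the program that assigned the reads, divides reads that match several genes. Sequences are the last 300 bases of the spliced coding parts of the GENCODE M21 transcripts (GRCm38), 5′ to 3′. Capitals mark the bases that differ between a gene and its partner. *Igkv10-96* is marked against *Igkv10-94*, and *Igkv10-94* and *Igkv10-95* against *Igkv10-96*. *Ighv1-54* is marked against *Ighv1-12*, and *Ighv1-12* and *Ighv1-14* against *Ighv1-54*. *Ighv1-14* is annotated as a pseudogene and is shown over the last 300 bases that align with *Ighv1-54*.
Igkv10-96: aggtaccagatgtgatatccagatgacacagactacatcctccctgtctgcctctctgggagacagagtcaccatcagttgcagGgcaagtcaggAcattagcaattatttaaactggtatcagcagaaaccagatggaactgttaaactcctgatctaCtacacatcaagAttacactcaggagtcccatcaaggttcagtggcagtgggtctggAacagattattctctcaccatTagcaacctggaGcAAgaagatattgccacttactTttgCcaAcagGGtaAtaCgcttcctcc
Igkv10-94: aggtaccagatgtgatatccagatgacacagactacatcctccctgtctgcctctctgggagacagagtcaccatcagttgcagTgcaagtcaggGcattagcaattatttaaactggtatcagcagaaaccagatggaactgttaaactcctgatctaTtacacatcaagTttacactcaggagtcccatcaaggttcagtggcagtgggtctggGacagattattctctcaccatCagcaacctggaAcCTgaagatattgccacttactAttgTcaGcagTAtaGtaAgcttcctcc
Igkv10-95: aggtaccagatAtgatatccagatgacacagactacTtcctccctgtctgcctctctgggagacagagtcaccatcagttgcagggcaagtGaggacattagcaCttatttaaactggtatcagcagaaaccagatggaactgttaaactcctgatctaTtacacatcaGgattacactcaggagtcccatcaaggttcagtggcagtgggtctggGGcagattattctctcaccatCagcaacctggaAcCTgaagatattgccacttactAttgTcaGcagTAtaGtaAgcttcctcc
Ighv1-54: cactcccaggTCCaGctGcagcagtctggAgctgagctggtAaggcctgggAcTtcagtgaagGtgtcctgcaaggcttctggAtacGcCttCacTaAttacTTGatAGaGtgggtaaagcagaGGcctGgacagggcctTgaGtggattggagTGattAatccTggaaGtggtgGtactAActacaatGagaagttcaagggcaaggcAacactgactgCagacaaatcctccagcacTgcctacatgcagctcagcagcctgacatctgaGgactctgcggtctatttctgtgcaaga
Ighv1-12: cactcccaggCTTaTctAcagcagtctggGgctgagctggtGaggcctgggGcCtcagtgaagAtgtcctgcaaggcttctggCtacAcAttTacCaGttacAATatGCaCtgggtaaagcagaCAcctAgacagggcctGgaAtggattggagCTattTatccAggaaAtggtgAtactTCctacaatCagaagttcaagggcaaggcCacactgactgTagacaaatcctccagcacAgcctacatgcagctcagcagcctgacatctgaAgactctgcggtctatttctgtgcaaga
Ighv1-14: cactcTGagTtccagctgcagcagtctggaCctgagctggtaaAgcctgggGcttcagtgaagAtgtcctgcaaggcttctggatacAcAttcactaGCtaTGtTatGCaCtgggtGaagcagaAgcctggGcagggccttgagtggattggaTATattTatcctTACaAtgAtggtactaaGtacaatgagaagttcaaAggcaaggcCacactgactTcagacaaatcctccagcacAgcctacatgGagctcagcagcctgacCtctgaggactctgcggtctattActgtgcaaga

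*Igkv10-96* lies at chr6:68631963-68632442 on the minus strand, in 2 exons, 2094.5 kb from the kappa constant gene *Igkc* at chr6:70726435-70726966. Over the whole coding part it differs from *Igkv10-94* at 16 of 347 aligned bases (95.4% identity) and from *Igkv10-95* at 20 (94.2%). *Ighv1-54* lies at chr12:115193675-115194134 on the minus strand, in 2 exons, 1773 kb from *Ighm*, the first heavy chain constant gene. It differs from *Ighv1-12* at 50 of 351 bases (85.8% identity) and from *Ighv1-14* at 44 (87.5%).

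Transcripts of 1 kappa V gene, 1 heavy chain V gene and their constant regions made up nearly all immunoglobulin expression. *Igkv10-96* had 47219, 54037 and 62005 TPM in control replicates 1, 2 and 3, and was the second most abundant gene of all in the control mean. *Ighv1-54* had 27748, 29968 and 39528 TPM in the same replicates. *Igkc*, which encodes the constant domain of kappa, had 30751, 32009 and 34518 TPM. The control replicates overlapped between *Ighv1-54* and *Igkc*, so the order of this pair is not set beyond the replicate spread, while *Igkv10-96* lay above both in every sample. *Ighg2b*, the constant region of IgG2b (chr12:113302965-113307933), had 12023, 12401 and 14899 TPM and lay below the other leaders in every sample. A V gene and its constant region are spliced into the same mRNA, so these 4 transcripts are gene entries rather than 4 separate mRNAs. Together they took 97.7% ± 0.287 (SD, n = 3) of member TPM in control cells, 97.5% ± 0.14 with the *Slc2a1* gRNA and 97.5% ± 0.109 with the 5 gRNAs. The same V and constant genes led in all 3 populations.

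The V genes exceeded the constant genes in TPM but not in counts. *Igkv10-96* had 126132 estimated counts in control replicate 1 against 247989 for *Igkc*. *Ighv1-54* had 86542 against 342026 for *Ighg2b*. A V transcript of 359 bases (*Igkv10-96*) or 377 bases (*Ighv1-54*) is close to the length of a sequenced fragment, and the effective length that Salmon divided by was 74.9 to 94.9 bases for *Igkv10-96* and 87.4 to 110.7 bases for *Ighv1-54*. For *Ighg2b* it was 825 to 865 bases. *Slc2a1/3/5/6/8* gRNA replicate 3 had the longest effective length for each of these genes, at 94.9 bases for *Igkv10-96* against at most 79.4 bases in the other 8 samples. TPM levels of V and constant genes are therefore less comparable with each other than levels of 1 gene between samples. Levels of a V gene between samples also depend on this length, for which the edgeR fits on counts make no adjustment.

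**Figure D1:**
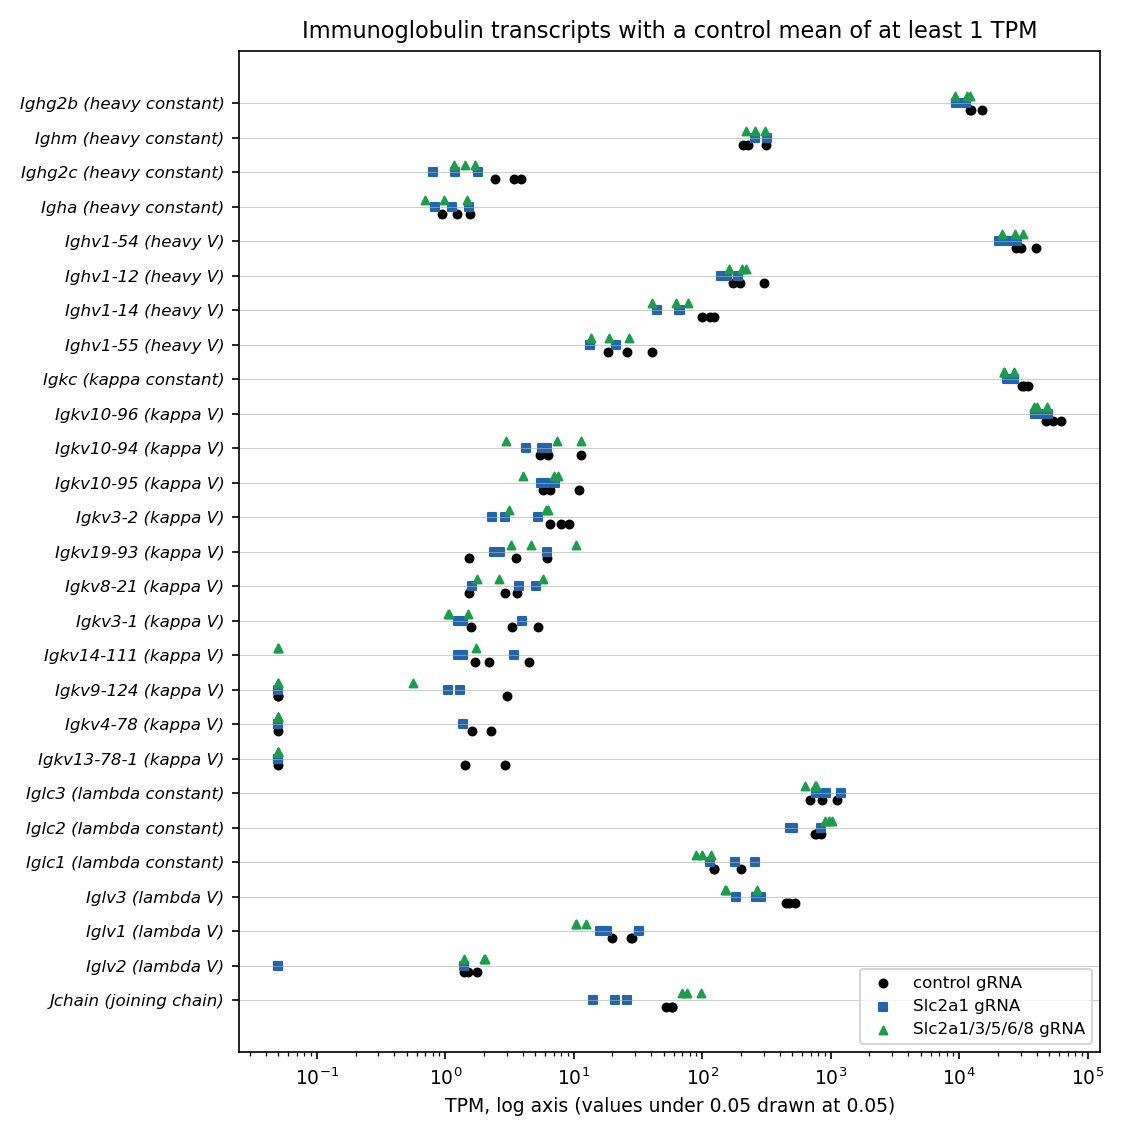
TPM on a log axis of each immunoglobulin gene with a control mean of at least 1 TPM, with 1 point per sample, black for control gRNA, blue for *Slc2a1* gRNA and green for *Slc2a1/3/5/6/8* gRNA. *Igkv10-96*, *Ighv1-54*, *Igkc* and *Ighg2b* lie at or above 9307 TPM in all 9 samples, and the next members, *Iglc3* and *Iglc2*, lie at or under 1211 TPM.

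Of the 388 members, 333 had no count in any sample and 19 more never exceeded 3 counts, which leaves 36 with over 3 counts in some sample. Those without a count were 175 of 183 heavy chain V genes, 130 of 160 kappa V genes and every D and J gene. The D and J segments are 10 to 54 bases long, shorter than the 150-base reads, so their absence says nothing about which J or D segment the clone uses. At a control mean of at least 1 TPM, 27 members were detected. A gene with few counts can pass this threshold because its effective length is short, as *Igkv13-78-1* did with 1, 0 and 2 counts in the control replicates.

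Among the heavy chain constant genes, *Ighg2b* took 98.1% ± 0.22 (SD, n = 3) of TPM in control cells. *Ighm*, the constant region of IgM and the first one transcribed in a B cell, was the only other class above 5 TPM (chr12:113418558-113422730). It had 227, 207 and 315 TPM in control replicates, 319, 259 and 257 TPM with the *Slc2a1* gRNA and 218, 258 and 309 TPM with the 5 gRNAs, and the groups overlapped. *Ighg2c*, another IgG constant region, had a mean of 1.98 TPM over the 9 samples and *Igha*, that of IgA, 1.15 TPM. *Ighd* had 3 to 10 counts per sample, *Ighe* 0 to 14 and *Ighg3* 0 to 8. *Ighg1* never exceeded 2 counts.

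*Ighg2b* is 88.2% identical to *Ighg2c* over 1209 aligned bases, with 186 shared stretches of 31 bases. It shares 81 such stretches with *Ighg3*, 43 with *Ighg1* and 0 with *Ighm*. The part that divided reads have in the *Ighg2c* level was not tested. As a share of *Ighg2b*, *Ighm* stood at 1.89% ± 0.225 (SD, n = 3) in control cells, 2.73% ± 0.436 with the *Slc2a1* gRNA and 2.39% ± 0.265 with the 5 gRNAs. Both deleted populations lay above all control replicates. The exact permutation p was 0.1 for each, the smallest that 3 against 3 allows, and 0.261 after adjustment over 60 tests of 20 such measures in 3 comparisons. In estimated counts the range with the 5 gRNAs overlapped that of control cells (exact permutation p = 0.2).

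*Ighv1-54* took 98.9% ± 0.0675 (SD, n = 3) of heavy chain V expression in control cells, 99% ± 0.0903 with the *Slc2a1* gRNA and 99% ± 0.0829 with the 5 gRNAs. Other heavy chain V genes with over 3 counts in any sample were *Ighv1-12*, *Ighv1-14*, *Ighv1-55* and *Ighv1-58*. *Ighv1-12* was the highest of them, with 195, 174 and 300 TPM in control replicates, 155, 139 and 191 TPM with the *Slc2a1* gRNA and 161, 219 and 202 TPM with the 5 gRNAs. Its ratio to *Ighv1-54* lay between 0.582 and 0.758% in the 9 samples, with both ends of this range in control replicates. *Ighv1-55* lay at 13.4 to 40.6 TPM. *Ighv1-77*, *Ighv1-76* and *Ighv1-53* never exceeded 1 count.

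These 4 minor heavy chain V genes were all at least 85% identical to *Ighv1-54* in aligned coding bases. They are among the 35 at this identity or higher of the 174 other heavy chain V genes that could be aligned over at least 200 bases. The median identity of all those genes was 75.7%. The genes most like *Ighv1-54* were not the ones with counts. *Ighv1-63* (92.9% identity) and *Ighv1-73* (92.3%) had no count in any sample, and *Ighv1-77* (91.2%) had at most 1. *Ighv1-55* shares 19 stretches of 31 bases with *Ighv1-54*, *Ighv1-58* shares 11, *Ighv1-12* shares 2 and *Ighv1-14* shares 0. On chromosome 12, *Ighv1-12* and *Ighv1-14* lie among the 137 V genes between *Ighv1-54* and *Ighm*, and *Ighv1-55* and *Ighv1-58* among the 45 beyond it. The part that divided reads have in these levels was not tested.

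*Ighv1-58* was seen in only 1 population. It had 19, 14 and 4 counts in *Slc2a1/3/5/6/8* gRNA replicates 1, 2 and 3 and 0 counts in each of the other 6 samples, where a count of 0 allows up to 3. The filter on low counts removed it from the test, and without that filter edgeR called it in both comparisons of that population, while DESeq2 called it in neither. It was singled out after its values were seen.

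*Igkv10-96* took 99.9% of kappa V expression in each of the 9 samples. The next kappa V genes were *Igkv10-94* at 2.94 to 11.4 TPM and *Igkv10-95* at 4 to 11 TPM, the pair printed above as its closest relatives. *Igkv10-94* shares 148 stretches of 31 bases with *Igkv10-96*, and *Igkv10-95* shares 72. Below them, *Igkv3-2* had a mean of 5.52 TPM over the 9 samples, *Igkv19-93* 4.52, *Igkv8-21* 3.19, *Igkv3-1* 2.26 and *Igkv14-111* 1.8. Of the 15 minor kappa V genes with over 3 counts, 13 shared no stretch of 31 bases with *Igkv10-96*. Also, 13 of the 15 lie among the 112 V genes between *Igkv10-96* and *Igkc*, and 2 among the 47 on its far side.

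**Figure D2:**
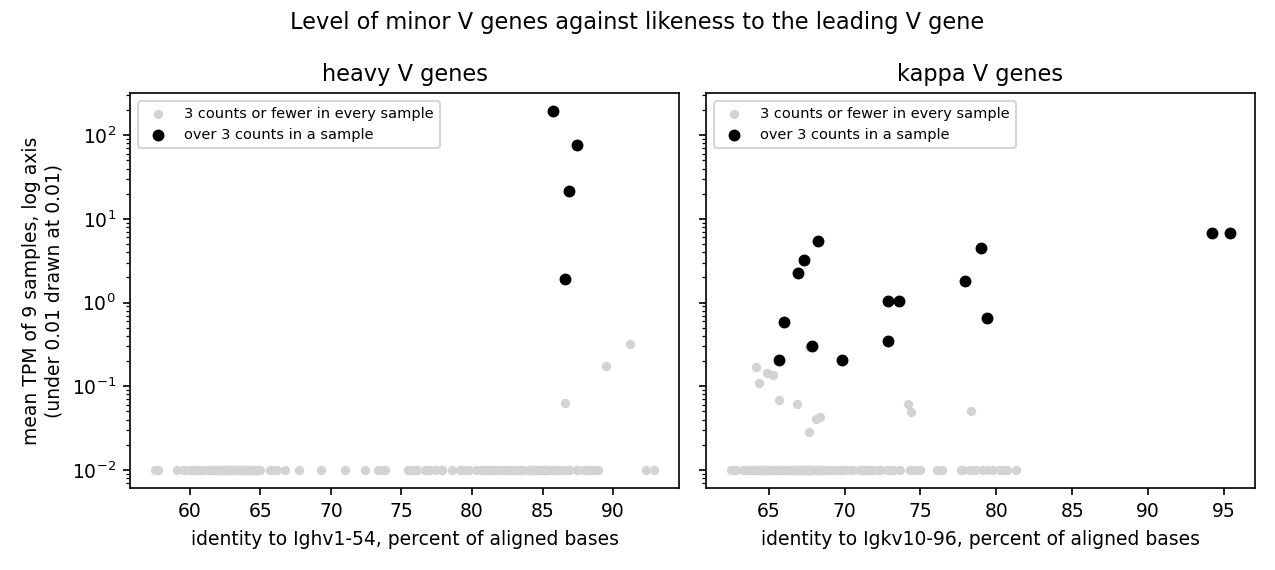
Mean TPM of 9 samples on a log axis against identity to the leading V gene, in percent of aligned coding bases, for heavy chain V genes (left) and kappa V genes (right), with the leader left out. The 4 heavy chain V genes with over 3 counts (black) sit between 85.8 and 87.5% identity, while kappa V genes with over 3 counts range from 65.7 to 95.4%.

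Lambda transcripts came from the unrelated light chain locus on chromosome 16. The 4 lambda constant genes, *Iglc1*, *Iglc2*, *Iglc3* and *Iglc4*, summed to 1996, 1574 and 1890 TPM in control replicates, against at least 30751 TPM of *Igkc*. Lambda was therefore 5.32% ± 0.713 (SD, n = 3) of light chain constant TPM in control cells, 6.59% ± 0.603 with the *Slc2a1* gRNA and 7.03% ± 0.335 with the 5 gRNAs. The share with the 5 gRNAs lay above all control replicates (exact permutation p = 0.1, adjusted 0.261). The summed lambda TPM did not separate the groups, at 1820 ± 219 in control cells, 1766 ± 284 with the *Slc2a1* gRNA and 1786 ± 102 with the 5 gRNAs.

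*Iglc2* and *Iglc3*, both lambda constant genes, are 96.5% identical over 314 aligned bases and share 106 stretches of 31 bases. They are shown because Salmon divides reads that match both genes. The part that divided reads have in their levels was not tested. The last 300 coding bases hold all 11 differences, in capitals.
Iglc2: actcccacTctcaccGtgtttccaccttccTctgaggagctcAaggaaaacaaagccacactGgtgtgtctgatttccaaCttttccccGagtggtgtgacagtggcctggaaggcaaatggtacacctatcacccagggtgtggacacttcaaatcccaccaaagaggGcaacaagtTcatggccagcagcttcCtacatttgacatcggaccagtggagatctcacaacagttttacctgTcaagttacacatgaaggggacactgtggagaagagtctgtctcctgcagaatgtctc
Iglc3: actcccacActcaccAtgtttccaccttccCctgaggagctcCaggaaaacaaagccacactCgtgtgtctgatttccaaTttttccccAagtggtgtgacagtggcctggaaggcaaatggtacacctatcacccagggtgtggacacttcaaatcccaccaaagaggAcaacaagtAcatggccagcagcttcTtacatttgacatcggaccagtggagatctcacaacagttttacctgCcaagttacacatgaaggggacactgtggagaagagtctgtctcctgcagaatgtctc

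*Iglc2* took 40.8, 52.1 and 49.7% of the sum of *Iglc2* and *Iglc3* in control replicates, 28.5, 39.7 and 47.6% with the *Slc2a1* gRNA and 60.5, 57 and 54.6% with the 5 gRNAs. All 3 replicates with the 5 gRNAs lay above the other 6 samples. The sum of *Iglc2* and *Iglc3* overlapped between the groups, at 1670 ± 212 TPM (SD, n = 3) in control cells, 1580 ± 261 with the *Slc2a1* gRNA and 1683 ± 91 with the 5 gRNAs. *Iglc1*, which shares no 31-base stretch with either, had 122, 124 and 200 TPM in control replicates, 115, 181 and 259 TPM with the *Slc2a1* gRNA and 99.6, 116 and 89.4 TPM with the 5 gRNAs. Between the deleted populations, edgeR gave log2 differences of -0.82 for *Iglc1* (adjusted p = 0.0712), 0.65 for *Iglc2* (adjusted p = 0.0733) and -0.43 for *Iglc3* (adjusted p = 0.0865). DESeq2 called each of the 3.

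Lambda V transcripts were fewer than lambda constant transcripts. *Iglv3* led them, with a mean of 306 TPM, followed by *Iglv1* at 19.5 TPM and *Iglv2* at 1.27 TPM. *Iglv3* (chr16:19241207-19241690, minus strand) has *Iglc2* (chr16:19198396-19200351) as its nearest lambda constant gene. It is 62.4% identical to *Iglv1*, with 0 shared stretches of 31 bases. The last 300 bases of its coding part are printed because this gene fell in both deleted populations, as given below.
Iglv3: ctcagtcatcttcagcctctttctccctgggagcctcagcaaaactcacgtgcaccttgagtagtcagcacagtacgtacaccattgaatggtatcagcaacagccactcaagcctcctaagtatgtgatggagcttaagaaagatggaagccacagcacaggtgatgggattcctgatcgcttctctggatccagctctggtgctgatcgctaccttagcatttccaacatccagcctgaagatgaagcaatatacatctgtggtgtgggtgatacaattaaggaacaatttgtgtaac

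The mean share of the library taken by immunoglobulin genes was smaller in both deleted populations. With 3 samples against 3 the smallest exact permutation p is 0.1, so no such difference could pass a threshold of 0.05. In TPM the members made up 12.1, 13.1 and 15.4% of control libraries, 10.4, 9.45 and 11.8% with the *Slc2a1* gRNA and 9.34, 12.2 and 10.4% with the 5 gRNAs. The means were 13.5% ± 1.71, 10.5% ± 1.17 and 10.6% ± 1.43 (SD, n = 3). A V gene and the constant region it is spliced to are listed as separate genes, so this sum counts the same antibody mRNA under both. It is therefore not the share of antibody mRNA molecules. The *Slc2a1* gRNA replicates lay below all control replicates (22.1% lower, exact permutation p = 0.1, adjusted 0.261), whereas replicate 2 with the 5 gRNAs lay above control replicate 1 (21.5% lower, exact permutation p = 0.2, adjusted 0.375). Within each replicate number the share was lower than in control cells in 3 of 3 pairs for both populations. For the 5 gRNAs this pairing rests on the labels alone, since deviations of same-numbered samples correlated by as little as -0.065. The deleted populations overlapped with each other. Mitochondrial genes took 8.01, 8.01 and 4.84% of counts in control replicates, 8.69, 10.5 and 6.57% with the *Slc2a1* gRNA and 11.1, 5.84 and 4.91% with the 5 gRNAs, with overlapping groups, and their part in the immunoglobulin share was not tested.

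Both deleted populations also had lower means than control cells in measures that depend less on the short V transcripts. Constant region genes alone, a choice made after the effective lengths were seen, took 4.76% ± 0.353 (SD, n = 3) of control TPM, 3.72% ± 0.288 with the *Slc2a1* gRNA and 3.67% ± 0.372 with the 5 gRNAs. Of the estimated counts, the members took 2.96, 3.25 and 3.23% in control replicates, 2.48, 2.53 and 2.69% with the *Slc2a1* gRNA and 2.64, 2.68 and 2.51% with the 5 gRNAs. In both measures every replicate of both deleted populations lay below every control replicate, with an exact permutation p of 0.1, adjusted 0.261. The 95% Wilson interval of each count share was within 0.00677 percentage points of it, which covers counting error only.

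**Figure D3:**
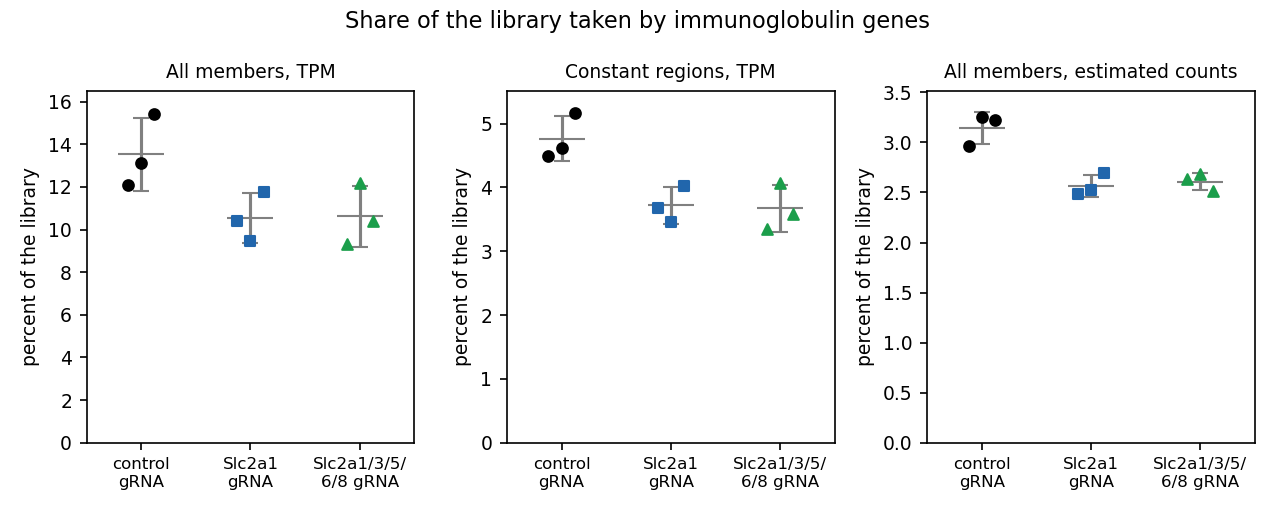
Percent of the library taken by immunoglobulin genes in each sample, for all members in TPM (left), constant region genes in TPM (middle) and all members in estimated counts (right). Points are the 3 replicates per population, grey bars mean ± SD. In estimated counts the control replicates lie between 2.96 and 3.25% and the other 6 samples between 2.48 and 2.69%.

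The heavy to light chain ratio of constant region TPM was 0.374, 0.376 and 0.418 in control replicates, 0.392, 0.394 and 0.397 with the *Slc2a1* gRNA and 0.398, 0.431 and 0.496 with the 5 gRNAs. The range with the 5 gRNAs overlapped that of control cells (exact permutation p = 0.2, adjusted 0.375). Replicate 3 with the 5 gRNAs, the one with the longest effective lengths, had the highest ratio.

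To ask which single members differed between populations, all genes were tested together with edgeR, with a call at an adjusted p under 0.05. Of the 388 members, 21 passed the filter on low counts. With the *Slc2a1* gRNA, 2 of the 21 were called, *Jchain* and *Iglv3*, both lower, while 4.64% of all 13834 genes tested were called (2.25% higher and 2.39% lower). In the cells with 5 gRNAs, 4 of the 21 were called, with *Iglv3*, *Ighv1-14* and *Ighg2c* lower and *Jchain* higher, while 15.9% of all genes tested were called (8.49% higher and 7.44% lower). Between the deleted populations 1 of the 21 was called, *Jchain*, which was higher with the 5 gRNAs, while 2.31% of all genes were called (1.36% higher and 0.947% lower). Both comparisons with control share the control samples.

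The 4 leading transcripts were not called in either comparison with control, although a fit of only the groups compared called *Ighv1-54* (adjusted p = 0.0313) and *Igkc* (adjusted p = 0.0469) with the *Slc2a1* gRNA. With the *Slc2a1* gRNA the log2 fold changes were -0.17 ± 0.12 (SE) for *Igkv10-96*, -0.28 ± 0.12 for *Ighv1-54*, -0.23 ± 0.13 for *Igkc* and -0.19 ± 0.12 for *Ighg2b*, with edgeR adjusted p-values of 0.451, 0.185, 0.318 and 0.394. In the cells with 5 gRNAs they were -0.21 ± 0.12, -0.13 ± 0.12, -0.35 ± 0.13 and -0.19 ± 0.12, with adjusted p-values of 0.266, 0.481, 0.0783 and 0.31. Of these, *Igkc* separated most in TPM, with 24662, 23333 and 26805 TPM with the *Slc2a1* gRNA and 22234, 26591 and 22223 TPM with the 5 gRNAs, all below the control replicates. In the comparison of the 5 gRNAs with control, *Igkc* passed the threshold without replicate 1 of the 5 gRNAs (adjusted p = 0.0111), with DESeq2 (0.00956), on scaling by total counts (0.0315) and without the filter (0.0369). Apart from leaving out 1 sample, the alternatives there gave -0.36 to -0.21 for *Igkv10-96* and -0.28 to -0.13 for *Ighv1-54*. Neither V gene was called in them. Over the 21 members tested, the median log2 fold change was -0.23 with the *Slc2a1* gRNA and -0.19 with the 5 gRNAs, with 15 and 16 of the 21 below 0, beside medians over all genes of -0.0013 and 0.0072.

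**Figure D4:**
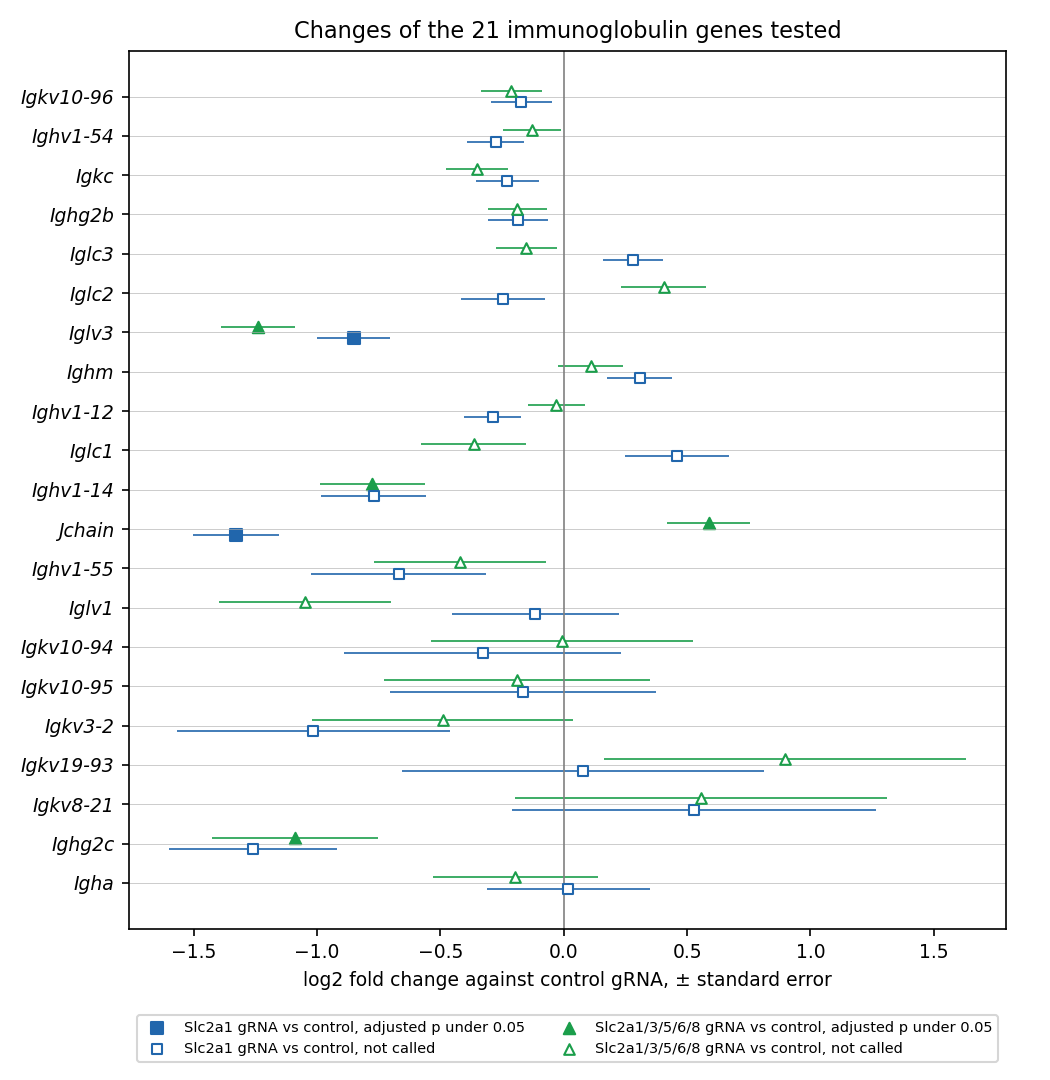
Log2 fold change against control gRNA with its standard error, from edgeR, for the 21 immunoglobulin genes tested, ordered by mean TPM. Blue squares are the *Slc2a1* gRNA and green triangles the *Slc2a1/3/5/6/8* gRNA comparison, filled where the adjusted p is under 0.05. The 4 leading transcripts at the top lie between -0.35 and -0.13, and *Jchain* lies at -1.33 and 0.59.

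*Jchain* fell with the *Slc2a1* gRNA and rose with the 5 gRNAs. It had 58.5, 52.3 and 57.9 TPM in control replicates, 20.8, 14.2 and 26.1 TPM with the *Slc2a1* gRNA and 75.6, 97.5 and 69.2 TPM with the 5 gRNAs. The 3 groups did not overlap. The log2 fold change was -1.33 ± 0.18 (SE) with the *Slc2a1* gRNA (edgeR adjusted p = 0.00529) and 0.59 ± 0.17 with the 5 gRNAs (adjusted p = 0.0348). Between the deleted populations it was 1.92 ± 0.18 (adjusted p = 0.000221), and this difference was called under each of the 18 alternatives.

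The rise of *Jchain* over control was less firm than the fall. It was lost on scaling by total counts (adjusted p = 0.065), with limma on log2(TPM + 1) (0.257) and log2(TPM + 0.1) (0.331), and on leaving out any control replicate or replicate 1 or 2 with the 5 gRNAs (0.0743 to 0.147). The fall with the *Slc2a1* gRNA was lost with limma (0.0814 and 0.145) and without control replicate 2 (0.0532). Relative to *Ighg2b*, *Jchain* stood at 0.432% ± 0.0499 (SD, n = 3) in control cells, 0.197% ± 0.0431 with the *Slc2a1* gRNA and 0.74% ± 0.124 with the 5 gRNAs, again without overlap.

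*Jchain* (chr5:88519809-88527891, minus strand) was the only member with an entry in the RefSeq promoter table used here. Its window of 300 bases, from 250 before to 50 after the start, holds neither the octamer ATGCAAAT, a motif of immunoglobulin promoters bound by Oct proteins, nor the heptamer CTCATGA, on either strand. The octamer is found in 1.73% and the heptamer in 2.67% of the 32851 promoter windows in the table. This says only that these letters are not in this window.

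*Iglv3* fell in both deleted populations. It had 448, 473 and 531 TPM in control replicates, 263, 183 and 284 TPM with the *Slc2a1* gRNA and 151, 267 and 152 TPM with the 5 gRNAs. The control replicates lay above all other samples. The log2 fold change was -0.85 ± 0.15 (SE, edgeR adjusted p = 0.0137) and -1.24 ± 0.15 (adjusted p = 0.000456), and between the deleted populations -0.39 ± 0.15 (adjusted p = 0.186). The call with the *Slc2a1* gRNA was lost without any single control replicate or without *Slc2a1* gRNA replicate 2 (adjusted p 0.0522 to 0.085) and with limma (0.13 and 0.206). The call with the 5 gRNAs was lost only with limma on log2(TPM + 0.1) (0.0727). As a share of *Igkv10-96*, *Iglv3* went from 0.893% ± 0.0489 (SD, n = 3) in control cells to 0.554% ± 0.076 and 0.442% ± 0.0941. *Iglv1* was at 25.3 ± 4.61 TPM in control cells, 22.2 ± 8.88 with the *Slc2a1* gRNA and 11.1 ± 1.16 with the 5 gRNAs, and was not called (adjusted p = 0.059 with the 5 gRNAs), although 5 of 18 alternatives, DESeq2 among them, called it there (lowest adjusted p 0.0229).

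*Ighv1-14* and *Ighg2c* were called with the 5 gRNAs, and with the *Slc2a1* gRNA in 8 and 7 of 18 alternatives. *Ighv1-14*, the pseudogene printed above, had 98.7, 123 and 116 TPM in control replicates, 44.4, 65.6 and 67.3 TPM with the *Slc2a1* gRNA and 62.3, 76.8 and 40.6 TPM with the 5 gRNAs. Its log2 fold change was -0.77 ± 0.21 (SE, edgeR adjusted p = 0.059) with the *Slc2a1* gRNA and -0.78 ± 0.21 (adjusted p = 0.0279) with the 5 gRNAs. *Ighg2c* had 97, 68 and 106 counts in control replicates, 39, 20 and 28 with the *Slc2a1* gRNA and 47, 30 and 29 with the 5 gRNAs. Its log2 fold change was -1.26 ± 0.34 (adjusted p = 0.0555) and -1.09 ± 0.34 (adjusted p = 0.0459). The control replicates of both genes lay above the other 6 samples, and the deleted populations did not differ by test (adjusted p = 0.991 and 0.835).

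Both calls with the 5 gRNAs were fragile. For *Ighv1-14* the call was lost without any single control replicate or without replicate 2 or 3 with the 5 gRNAs (adjusted p 0.0869 to 0.152), and with limma (0.0714 and 0.115). For *Ighg2c* it was lost on leaving out any 1 of 8 samples, *Slc2a1* gRNA replicate 1 being the exception (0.0532 to 0.236), without the replicate block (0.0753) and with limma on log2(TPM + 0.1) (0.077). With the *Slc2a1* gRNA, DESeq2 called both (0.0193 for *Ighv1-14* and 0.0301 for *Ighg2c*).

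**Figure D5:**
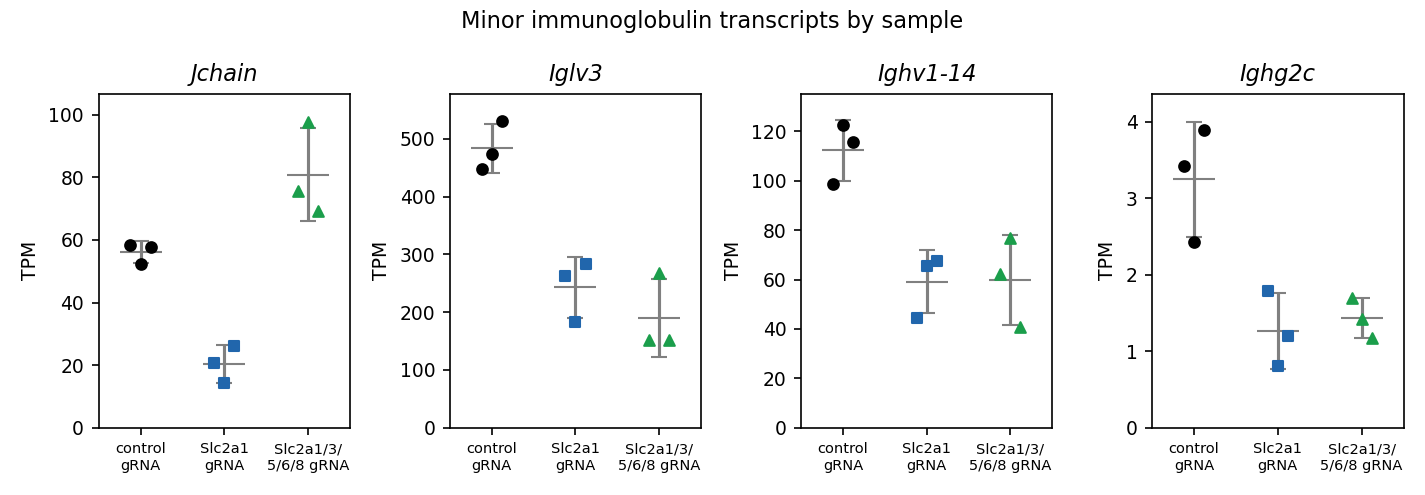
TPM of *Jchain*, *Iglv3*, *Ighv1-14* and *Ighg2c* in each of the 3 replicates per population, with mean ± SD in grey. *Jchain* lies lowest with the *Slc2a1* gRNA (14.2 to 26.1 TPM) and highest with the 5 gRNAs (69.2 to 97.5 TPM), and the other 3 genes lie highest in control cells.

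The genes that act on antibody chains were read from the same fit. Among 30 tested genes for folding and assembly in the endoplasmic reticulum, 5 were lower with the *Slc2a1* gRNA and 0 higher, with a median log2 fold change of -0.21, while 2.39% of all genes were called lower. The count called in either direction ranged from 0 to 12 over the alternatives. In the other population 12 were lower and 1 higher, with a median of -0.31, while 7.44% of all genes were called lower and 8.49% higher. The count of called genes ranged there from 1 to 16. *Calr*, a lectin chaperone, went from 568 ± 93.8 TPM (SD, n = 3) in control cells to 348 ± 38.6 and 280 ± 56.1, a log2 fold change of -0.53 (edgeR adjusted p = 0.0277) and -0.94 (adjusted p = 0.000544). *Sdf2l1*, a partner of the chaperone BiP, fell by 1.07 on the log2 scale with the 5 gRNAs (adjusted p = 0.00123), and *Manf*, a secreted protein of the endoplasmic reticulum, by 0.72 (adjusted p = 0.00149). *Hsp90b1*, which encodes the chaperone GRP94, and *Ero1b*, an oxidase for disulfide bonds, were also lower with the *Slc2a1* gRNA (-0.51 and -0.57, adjusted p = 0.0406 and 0.0284). With the *Slc2a1* gRNA the calls of *Calr*, *Hsp90b1* and *Ero1b* were each kept in 10 of 18 alternatives, with adjusted p-values up to 0.19, 0.246 and 0.179 on leaving out 1 sample. *Herpud1*, of endoplasmic reticulum associated degradation, was the member that was higher with the 5 gRNAs (0.37, adjusted p = 0.0332), named after its value was seen. The summed TPM of the list was 6314 to 8271 in control replicates, 4756 to 6001 with the *Slc2a1* gRNA and 4477 to 5842 with the 5 gRNAs. The summed level of these genes thus moved with the immunoglobulin share, and their part in it was not tested.

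Of 29 genes for the translocon, signal peptides and vesicles, 1 was lower with the *Slc2a1* gRNA (*Sec24d*, a COPII coat subunit, log2 fold change -0.55, edgeR adjusted p = 0.0255), beside 2.39% of all genes. This call of *Sec24d* was kept in 10 of 18 alternatives, with adjusted p-values up to 0.171 on leaving out 1 sample. The count of genes called in either direction ranged from 0 to 9 over the alternatives, and DESeq2 called 6 lower and 1 higher. Under the 5 gRNAs 7 were lower, beside 7.44% of all genes, among them *Kdelr2*, which returns proteins to the endoplasmic reticulum (-0.65, adjusted p = 0.00167), *Sec23b* (-0.48, adjusted p = 0.00928) and *Sec24d* (-0.55, adjusted p = 0.00978). The count called in either direction with the 5 gRNAs ranged from 0 to 8 over the alternatives. The list medians were -0.12 and -0.15.

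Of 19 tested transcription factors of immunoglobulin loci and of the plasma cell or B cell state, 1 was higher with the *Slc2a1* gRNA and 2 with the 5 gRNAs, with medians of -0.019 and 0.15, beside 2.25 and 8.49% of all genes called higher. *Pou2af1*, the OCA-B coactivator of octamer-dependent immunoglobulin promoters, rose in both (log2 fold change 0.61, edgeR adjusted p = 0.0207, and 0.55, adjusted p = 0.0121), calls kept in 11 and 13 of 18 alternatives. *Ikzf3*, which encodes Aiolos, rose with the 5 gRNAs (0.89, adjusted p = 0.0268) from 1.01 ± 0.335 TPM (SD, n = 3) in control cells. That call was kept in 10 of 18 alternatives. The TPM ranges overlapped, with 1.02 TPM in replicate 1 with the 5 gRNAs and 1.35 TPM in control replicate 1. The plasma cell regulators *Prdm1*, *Xbp1* and *Irf4* had control means of 24.4, 469 and 112 TPM.

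Of 20 genes that process heavy chain mRNA to its secreted form, 0 were called with the *Slc2a1* gRNA by edgeR (3 at an unadjusted p under 0.05, and 1 called by DESeq2), beside 4.64% of all genes. In the other comparison 1 was called, *Hnrnpf*, an RNA-binding protein (log2 fold change 0.46, adjusted p = 0.0225), beside 15.9% of all genes, so this share is not above the background. In the list for recombination, class switching and hypermutation, *Rag1* and *Rag2*, the recombinase genes, had no count in any sample. *Polq*, a repair polymerase, was lower in both populations (-0.56, adjusted p = 0.017, and -0.95, adjusted p = 0.000241), and with the 5 gRNAs *Prkdc* was lower (-0.5, adjusted p = 0.0221) and *Ung*, a uracil glycosylase, higher (0.43, adjusted p = 0.0244). These and *Lig4*, a DNA ligase that was lower with the 5 gRNAs (-0.48, adjusted p = 0.0473) and is named after its value was seen, were 1 and 4 calls among 15 genes tested, beside 4.64 and 15.9% of all genes. The calls of *Prkdc* and *Ung* were kept in 12 and 10 of 18 alternatives, with edgeR adjusted p-values up to 0.159 and 0.164 on leaving out 1 sample. *Polq* kept its call in 11 with the *Slc2a1* gRNA and in 17 with the 5 gRNAs.

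In the antigen receptor list 0 of 6 genes tested were called with the *Slc2a1* gRNA by edgeR (1 at an unadjusted p under 0.05, and 0 called by DESeq2), and 2 with the 5 gRNAs, beside 4.64 and 15.9% of all genes. In the other comparison *Lyn*, a kinase that acts in antigen receptor signalling, was higher (0.6, edgeR adjusted p = 0.003). *Syk* was lower (-0.36, adjusted p = 0.0398), a call kept in 9 of 18 alternatives. Of 3 Fc receptor genes tested, 0 were called with the *Slc2a1* gRNA by edgeR (1 at an unadjusted p under 0.05, and 0 called by DESeq2) and 1 with the 5 gRNAs, beside the same shares of all genes. *Fcgr2b*, the inhibitory receptor for IgG, rose with the 5 gRNAs, with a log2 fold change of 1.13 (adjusted p = 0.000204), and by 0.81 relative to the *Slc2a1* gRNA cells (adjusted p = 0.00572).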

How the data were processed

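RNA of 3 populations of 5TGM1-Cas9 cells with 3 replicates each was analysed, grouped by the population and number in the labels. Per the study's methods, cDNA was primed with oligo-dT and read as paired 150-base reads, which the authors mapped with Salmon 1.5.1 on Galaxy (version from the submitters' processing notes). Annotation and settings are not given in the sources used here. The authors deposited, per gene, an estimated count and a TPM value, the latter normalized for effective length and to a fixed total per library, beside the length and effective length.

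Rounded estimated counts were tested with edgeR 4.0.16 in R 4.3.3 (quasi-likelihood, TMM, default filter, Benjamini-Hochberg over 13834 genes, adjusted p under 0.05), with all 9 samples in 1 fit and the replicate number as a block, since the study used paired tests. Deviations of same-numbered samples correlated by at least 0.111 in the *Slc2a1* gRNA and control pairs, but by as little as -0.065 in the pairs of control and 5 gRNAs and -0.107 in those of the deleted populations, so the numbers pair only the first comparison by the data. Standard errors were derived from the F statistic. Shares and ratios were compared by exact permutation tests (two-sided, scipy 1.17.1).

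Members, lists and tests were chosen with earlier results of these data known. Genes named are all constant genes, *Jchain*, the 10 highest heavy and 10 highest light chain V genes as far as they had counts, called members, and for each list the 3 called genes with the smallest adjusted p. Coordinates and sequences are from GENCODE M21, in which all 388 members occur, and identities are from Biopython 1.88 alignments. Replicates differed by more than counting noise (chi-squared per degree of freedom at least 21.2). On data simulated for the comparison of the 5 gRNAs with control, edgeR recovered 83 of 98 2-fold and 101 of 102 4-fold changes and called 11 others among 13834 genes. The simulation gave every gene the same spread beyond counting noise and no replicate effect. It therefore does not show how the fit performs on these samples. Alternatives were DESeq2 1.42.0, limma 3.58.1 on log2(TPM + 1) and log2(TPM + 0.1), other scalings and filters, no block, only the groups compared, and each sample left out. The amplicon sequencing and cell assays were not analysed here.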

Additional observations from a re-analysis of the deposited data

Results flagged for a closer look

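*Jchain* changed in opposite directions in the deleted populations. The change from control with the 5 gRNAs exceeded that with the *Slc2a1* gRNA by 1.92 on the log2 scale (edgeR adjusted p = 0.000221 for the difference itself), and all 3 replicates with the 5 gRNAs lay above, and all 3 with the *Slc2a1* gRNA below, the control replicates. Both changes are measured against the same control samples, which also enter the fit behind the difference. The added gRNAs and the sorting and expansion of that line cannot be told apart in this difference.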

How the results depend on the processing

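The count of members called moved with the processing. With the *Slc2a1* gRNA, 2 members were called by edgeR with the replicate block and 2 without the block, the same genes, while DESeq2, scaling by total counts and a minimum of 10 counts in every sample each called 4, no filter 5, and a fit of only the groups compared 8. Limma on log2(TPM + 1) and log2(TPM + 0.1) called 0 (9 and 5 at an unadjusted p under 0.05), and leaving out 1 sample gave 0 to 4. With the 5 gRNAs, 4 were called with the block and 3 without it (*Ighg2c* lost), no filter called 8, limma 2 and 0 (6 and 5 at an unadjusted p under 0.05), and leaving out 1 sample gave 1 to 5. Between the deleted populations, where 1 was called with and without the block, DESeq2 called 4, no filter 5, and leaving out 1 sample gave 1 to 2. Without the block, *Ero1b* and *Sec24d* with the *Slc2a1* gRNA and *Ikzf3* and *Ung* with the 5 gRNAs also lost their calls. No other call changed among the 56 pairs of gene and comparison that were run under the alternatives. Left out of these pairs were the gRNA targets, *Herpud1*, *Lig4*, and *Fcgr2b* between the deleted populations, among others. Over the 56 pairs, 822 of 1008 alternative results kept direction and side of the threshold. The only reversals among these pairs were *Iglv1* with the *Slc2a1* gRNA (leaving out 1 sample gave -0.48 to 0.18) and *Ighv1-55* with the 5 gRNAs (-0.81 to 0.059), neither called. Genes of the folding list called with the *Slc2a1* gRNA ranged from 0 to 12 and with the 5 gRNAs from 1 to 16. All genes called ranged from 0 to 2268 (642 as reported) and from 88 to 2751 (2204 as reported) over the same alternatives, so these counts moved beside a shift over all genes. Limma on log2(TPM + 1) moved the median of all genes to -0.11 with the *Slc2a1* gRNA. The cause of these shifts was not tested.

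In control cells the immunoglobulin share was 3.15% of estimated counts and 4.76% of TPM for constant genes alone, against 13.5% of TPM. Estimated counts gave 97.1% for *Ighg2b* among heavy chain constant genes, 98.7% for *Ighv1-54*, 98.8% for *Igkv10-96* among light chain V genes and a heavy to light ratio of 1.4 in place of 0.389. The shifts in estimated counts follow from dropping the division by effective length. The share of constant genes alone comes from a smaller set of genes, without the V genes spliced to them. Ratios of the immunoglobulin share between populations stayed within the replicate SD, while the ratio of the lambda share with the 5 gRNAs to that with the *Slc2a1* gRNA went from 1.07 in TPM (overlapping groups) to 1.2 in estimated counts (no overlap). At a mean of 10 or 100 TPM, 14 or 11 members were detected in place of 27. V genes under 10 counts cannot be compared at this depth.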
